A study of Danio rerio with 49 samples.

Results

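The spinal cord rostral to a transection was compared at 6 weeks post injury (wpi) with the same stretch of cord from uninjured zebrafish, using 5 libraries of each group out of the 49 libraries and 10 groups of the series. The comparison was set by the labels alone: the 5 libraries labelled as rostral at 6 wpi and the 5 labelled as rostral control. All fish were of the AB wild-type strain, carried no transgene in the labels, and were juvenile to adult animals. The study used fish of both sexes and states an age range for them, but not whether it holds at injury or at sampling. The age of the control fish when sampled is not given in the sources used here, so a difference in age cannot be told apart from the injury. The injured fish had received a complete transection at the seventh spinal segment, the tissue was the 5 segments rostral to that site, and the controls were the corresponding segments of fish with no injury. The libraries are described as pools, and whether each one pooled its own fish is not given in the sources used here. Read literally, fewer fish than libraries are stated for each group, so libraries of a group may share fish and may not be independent. Every n given here therefore counts libraries and not fish. The SE and p-values measure only the spread between libraries, and could be too small if fish were shared. The tissue was bulk cord, in which fewer cells of a type and less RNA per cell cannot be told apart.

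Zebrafish, unlike mammals, rebuild a transected spinal cord and swim again. Ependymo-radial glia, the ciliated cells that line the central canal, divide and bridge the lesion, and severed axons regrow along them, while microglia and macrophages clear debris. The rostral cord also holds intraspinal serotonergic neurons and neurons that contact the cerebrospinal fluid, which release serotonin, GABA or peptides onto the locomotor network.

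At 6 wpi the rostral cord still differed widely from uninjured cord. Of 28327 genes tested, 974 were higher at 6 wpi (3.44% of all genes tested) and 233 were lower (0.823%) at an adjusted p of 0.05 (limma, Benjamini-Hochberg). Peptide hormones, an interleukin, immune genes, AP-1 transcription factors and genes of motile cilia were among the increases. Neurofilament and lipid synthesis genes and the melanosome gene pmelb were among the decreases. Values are FPKM as deposited, fragments scaled to gene length and by a factor for each library. That factor was not proportional to the library's total of fragments on genes. Every log2 difference is on the scale log2(FPKM + 0.1), 6 wpi minus control, which understates changes of genes near 0. With the replicate number as a block in the fit, 1467 genes were higher (5.18%) and 552 were lower (1.95%). The total of 1207 genes fell to 557, 623 and 772 without 6 wpi replicates 5, 4 and 3, and to 651 without control replicate 3. When fragments were instead scaled to the library total, the median log2 difference of all genes was 0.27, against −0.02 with the deposited scaling. Of the called genes 98.4% were then higher, against 80.7% with the deposited scaling.

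**Figure D1:**
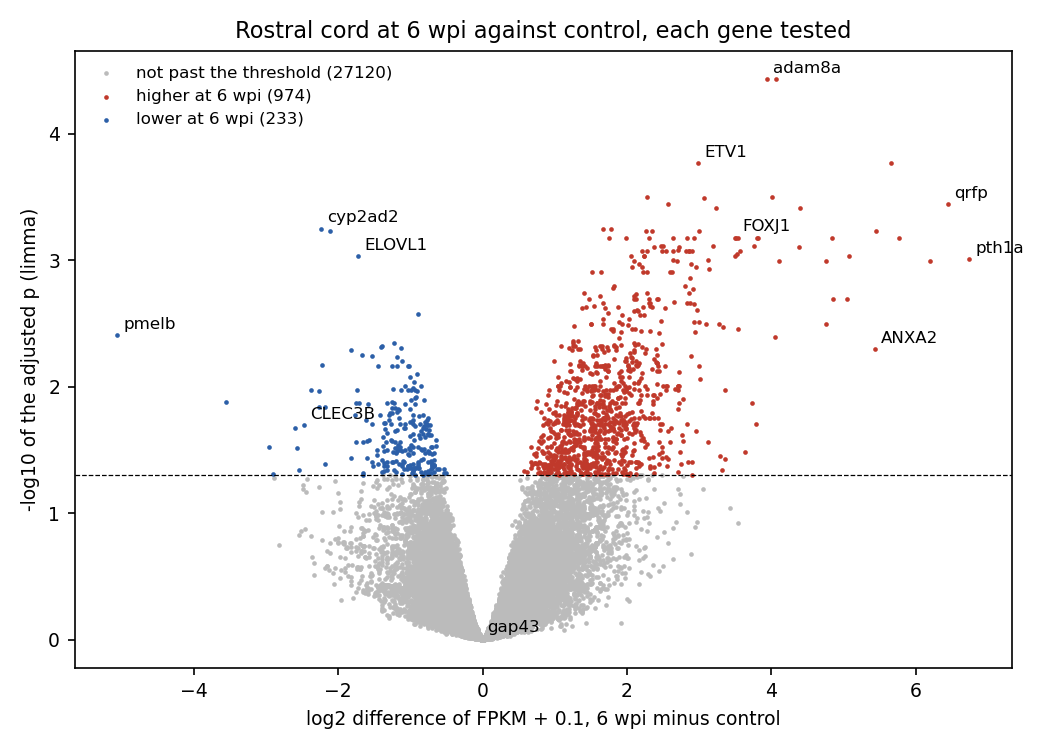
Each point is 1 of 28327 genes, with the log2 difference of FPKM + 0.1 (6 wpi minus control, 5 libraries each) on the x axis and the −log10 of the adjusted p from limma on the y axis. Red points are the 974 genes higher at 6 wpi, blue points the 233 lower genes, grey points the genes not past the dashed threshold of 0.05. The increases reached 6.74 (pth1a) and the decreases −5.06 (pmelb).

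The 10 libraries held 12289561 to 26940599 fragments on genes. Genes of the mitochondrial genome took 14.1 to 33.4% of the fragments in control and 16.8 to 27.5% at 6 wpi. Loci without an Ensembl identifier took 3.39 to 3.66% in control replicates 1 to 3 and 2.36 to 2.52% in replicates 4 and 5, and 4.19 to 4.34% against 3.07 to 3.19% at 6 wpi, so that the libraries numbered 4 and 5 stood apart in both groups. Comparisons are therefore also given within replicates 1 to 3 (131 genes higher, 42 lower) and within replicates 4 and 5 (546 higher, 104 lower). Gene symbols in capitals are as the reference table writes them for zebrafish genes, and a symbol that several genes share is followed by its Ensembl identifier.

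The neural markers of cord tissue were abundant. Neuron markers summed to 2422 to 4675 FPKM in control and 2127 to 3001 FPKM at 6 wpi, and oligodendrocyte markers to 42188 to 150564 and 32140 to 52271 FPKM. Ependymo-radial glia markers summed to 3091 to 7325 and 2224 to 5928 FPKM. The groups overlapped in these sums. Without their most abundant member the neuron markers summed to 1201 to 1952 FPKM in control and 664 to 1009 FPKM at 6 wpi, with the groups apart, while the other sums still overlapped.

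Among the largest increases were secreted peptides. The largest changes each way were picked among genes whose groups did not overlap, so for them the separation of the groups is part of the choice. Parathyroid hormone 1a (pth1a, chromosome 25, 17860798 to 17861696, plus strand, danRer11), a regulator of calcium balance and of bone, was at 0.317, 0.181, 0.64, 0.188 and 2.41 FPKM in control replicates 1 to 5 and at 22.2, 14.4, 108, 106 and 233 FPKM in 6 wpi replicates 1 to 5. The lowest injured library was far above the highest control, and control replicate 5 was above the other controls. Its log2 difference was 6.74 ± 0.79 (SE, n = 5 per group, adjusted p = 0.000985), with 6.21 in replicates 1 to 3 and 7.53 in replicates 4 and 5.

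The RF-amide neuropeptide qrfp (chromosome 19, 17834204 to 17834825, minus strand), which in vertebrates acts on feeding and arousal, was at 2.03, 1.16, 1.8, 1.92 and 5.32 FPKM in control and 53.7, 114, 218, 367 and 564 FPKM at 6 wpi. The groups did not overlap and replicates 4 and 5 were the highest at 6 wpi. The log2 difference was 6.44 ± 0.58 (adjusted p = 0.00036).

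Relaxin 3a (rln3a, chromosome 3, 19207176 to 19210637, plus strand), a neuropeptide of the relaxin family, had no fragment in any of the 5 control libraries. At 6 wpi it was at 16.4, 2.83, 1.01, 11.5 and 7.54 FPKM, from 13 to 179 fragments a library. Against the limit of 3 fragments over the control group the level was at least 147-fold higher, and limma gave an adjusted p of 0.000665.

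Vasoactive intestinal peptide b (vipb, chromosome 11, 43401201 to 43414172, plus strand), a neuropeptide that also acts on blood vessels and immune cells, was at 0.0594, 0, 0.096, 0 and 0.0935 FPKM in control. These values rested on 7 fragments in all. At 6 wpi it was at 10.9, 1.23, 15.2, 4.55 and 2.49 FPKM, each above every control, with a log2 difference of 5.08 ± 0.59 (adjusted p = 0.000929).

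Urotensin 2a (uts2a, chromosome 23, 30048849 to 30055719, plus strand), a vasoactive peptide, was at 0.0741, 0.508, 0.718, 0.965 and 2.25 FPKM in control and 10.1, 11, 45.3, 57.4 and 28.9 FPKM at 6 wpi. All injured libraries were above all controls, with a log2 difference of 5.05 ± 0.67 (adjusted p = 0.00203). The natriuretic peptide gene nppcl2 (chromosome 23, 44633858 to 44642913, plus strand) was at 4.61, 6.22, 5.27, 2.09 and 3.11 FPKM in control and 40.2, 53.3, 58.3, 127 and 275 FPKM at 6 wpi. Its log2 difference of 4.38 ± 0.48 (adjusted p = 0.000791) was 3.21 within replicates 1 to 3 and 6.14 within replicates 4 and 5. A related gene, nppb, rose by a log2 difference of 3.81 ± 0.40 (adjusted p = 0.000665).

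The other 6 of the 12 largest increases among genes with a symbol, groups apart and a mean of at least 1 FPKM at 6 wpi were of varied function. Loci without a symbol, some with differences as large, are not described. Interleukin 11a (il11a), a cytokine of the interleukin 6 family, was at 0.0817, 0.0934, 0.264, 0.29 and 0.0857 FPKM in control and 5.49, 3.84, 12, 14.1 and 39.3 FPKM at 6 wpi. The log2 difference was 5.45 ± 0.54 (adjusted p = 0.000591). Annexin A2 (ANXA2), a calcium-dependent membrane binding protein, was at 10.7, 13.1, 18, 21.8 and 22.2 FPKM in control and 408, 170, 203, 2634 and 5151 FPKM at 6 wpi. Replicates 4 and 5 were thus several times higher than the other injured libraries, and the log2 difference of 5.43 ± 0.84 (adjusted p = 0.00503) was 4.14 within replicates 1 to 3 and 7.38 within replicates 4 and 5. The membrane protein gene tmem196b was at 0 to 1.95 FPKM in control and 9.1 to 50.7 FPKM at 6 wpi (6.2 ± 0.74, adjusted p = 0.00101). The other genes of this set were tnfaip2b (4.84 ± 0.51), si:ch211-153b23.5 (4.76 ± 0.57) and CTHRC1 (ENSDARG00000087198), a secreted protein with collagen repeats (4.11 ± 0.49). All 12 passed in each of the 10 fits with 1 library left out.

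**Figure D2:**
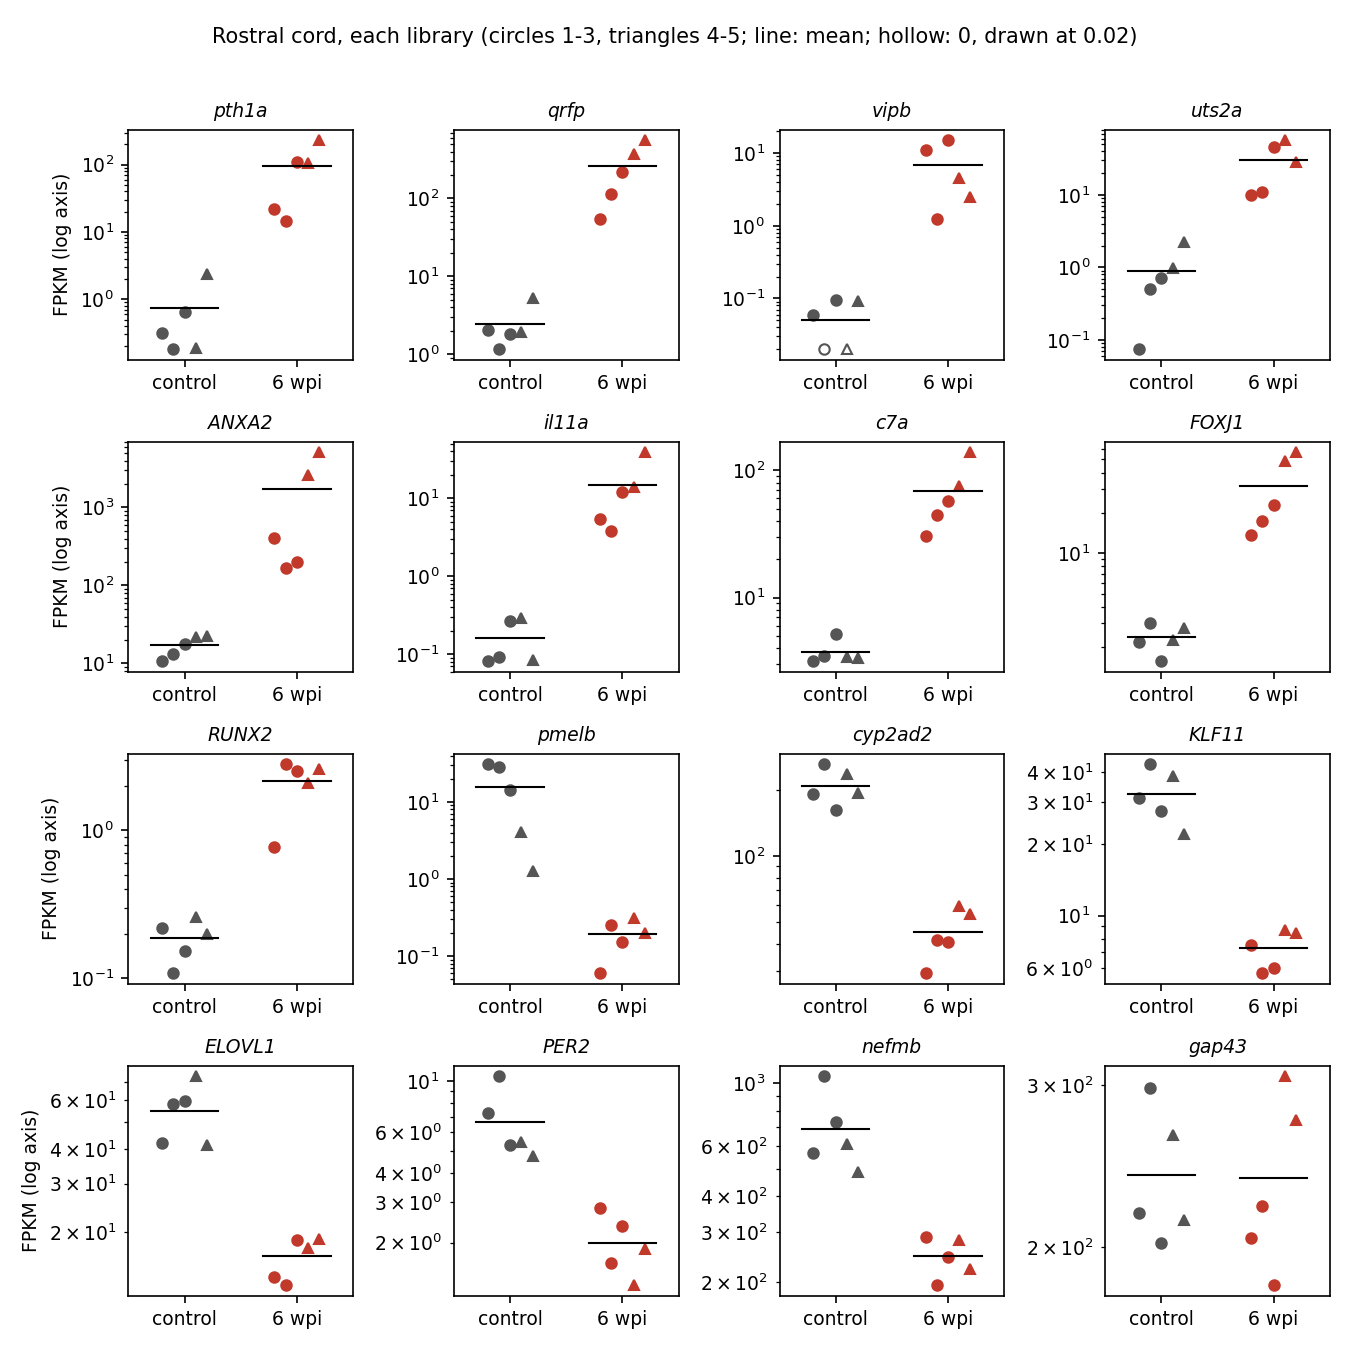
FPKM on a log axis in each of the 5 control and 5 injured libraries for 16 genes, with circles for replicates 1 to 3, triangles for replicates 4 and 5, a line at the group mean and hollow symbols for values of 0. The groups are apart for 15 genes, and for gap43 (182 to 307 FPKM at 6 wpi, 202 to 298 FPKM in control) they overlap.

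The decreases were smaller in number. The melanosome protein gene pmelb (chromosome 23, 35672542 to 35690336, plus strand), which forms the fibrils on which melanin is laid down, was at 31.1, 28.1, 14.3, 4.1 and 1.26 FPKM in control and 0.06, 0.253, 0.152, 0.311 and 0.198 FPKM at 6 wpi. Control replicates 4 and 5 were lower than the other controls, and all controls were above all injured libraries. The log2 difference was −5.06 ± 0.75 (adjusted p = 0.00391), with −6.59 in replicates 1 to 3 and −2.77 in replicates 4 and 5. None of the 7 pigment cell markers tested passed the threshold, and the 11 markers in the table summed to 5.92 to 11 FPKM in control and 8.93 to 13.1 FPKM at 6 wpi. Without their most abundant member the sum was higher at 6 wpi with the groups apart, at 4.34 to 6.66 and 6.87 to 10.4 FPKM.

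The cytochrome P450 gene cyp2ad2 (chromosome 20, 25534669 to 25542183, minus strand) was at 193, 264, 162, 237 and 194 FPKM in control and 29.3, 41.5, 40.8, 59.5 and 54.3 FPKM at 6 wpi. This was a drop in every library, with a log2 difference of −2.24 ± 0.22 (adjusted p = 0.000563). A gene on the other strand overlaps it, and whether the counting used strand is not given in the sources used here, so that reads of the 2 genes may be mixed. The same holds for rln3a, ELOVL1, zgc:92749, ctss2.2, spi1a, tap2a, mhc2dgb, SOCS3, nfkbiaa, LAMB2, nkx2.2b, UGT8, HOMER1, jag1b, CALCB, HOXA11, SLC6A4, HTR3B, HTR2B, HTR2A ENSDARG00000058165, LDLRAD2, RUNX2, runx2b and mbpa. The Krüppel-like transcription factor gene KLF11 (ENSDARG00000030844, chromosome 20, 29502065 to 29505863, minus strand) was at 31.2, 43.3, 27.5, 39 and 21.9 FPKM in control and 7.54, 5.73, 6.01, 8.72 and 8.49 FPKM at 6 wpi. Its log2 difference was −2.12 ± 0.21 (adjusted p = 0.000591). ELOVL1 (ENSDARG00000099960), which lengthens the very long fatty acids used in myelin, was at 41.9, 58.1, 59.6, 73.3 and 41.3 FPKM in control and 13.8, 12.9, 18.7, 17.6 and 19 FPKM at 6 wpi, a log2 difference of −1.72 ± 0.20 (adjusted p = 0.000929).

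Of the remaining 8 of the 12 largest decreases, chosen in the same way, 6 passed in each fit with 1 library left out. They were si:dkeyp-94g1.1 (−2.38 ± 0.43), the claudin gene cldn33b (−2.22 ± 0.36), si:dkey-31g16.2 (−2.18 ± 0.42), zgc:92749 (−1.82 ± 0.28), the lens crystallin gene CRYBB3 (−1.76 ± 0.34) and the matrix protein gene DPT (−1.74 ± 0.32). CLEC3B (ENSDARG00000099500), which encodes tetranectin, fell by 2.48 on the log2 scale (adjusted p = 0.0202), but its adjusted p was 0.0565 without 6 wpi replicate 4 and 0.055 without control replicate 3. The somatostatin gene sst7 was at 58.6 to 225 FPKM in control and 14.7 to 54.7 FPKM at 6 wpi, and fell by 1.82 (adjusted p = 0.0364). Its adjusted p was 0.0813 with the replicate block, and it missed the threshold without 6 wpi replicates 2, 4 or 5 (0.0546, 0.0811 and 0.102) or control replicates 2 to 5 (0.0604, 0.0715, 0.0814 and 0.0626).

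Genes of microglia and macrophages were among the increases. Of 26 microglia and macrophage genes tested, 11 were higher and none was lower at 6 wpi, beside 3.44% and 0.823% over all genes. The median log2 difference was 1.22 against −0.02 over all genes, and 18 genes of the list were higher with the replicate block. The count of 11 fell to 7, 6 and 4 without 6 wpi replicates 3, 4 and 5 and to 7 and 6 without control replicates 2 and 3. The purine receptor gene P2RY12, a marker of resting microglia, was at 1.16, 2.4, 1.82, 2.62 and 2.59 FPKM in control and 3.71, 6.49, 4.92, 5.46 and 6.01 FPKM at 6 wpi. Every injured library was above every control, with a log2 difference of 1.32 ± 0.25 (adjusted p = 0.0129). The colony stimulating factor receptor gene csf1rb (1.23 ± 0.24), the myeloid transcription factor gene spi1a (1.56 ± 0.30) and the lysosomal protease gene ctss2.2 (1.55 ± 0.26) were higher too. The microglia and macrophage markers summed to 252 to 1322 FPKM in control and 1755 to 4903 FPKM at 6 wpi, mostly from apoeb, and to 9.62 to 38.4 and 55 to 79.6 FPKM without it. The part of cell number in these changes was not tested.

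Complement and interferon response genes were among the increases too. Of 15 complement genes, 4 were higher (median 1.00), beside 3.44% over all genes. The count was also 4 in every fit with 1 library left out. The terminal complement gene c7a was at 3.16, 3.5, 5.19, 3.39 and 3.32 FPKM in control and 30.3, 44.3, 57.6, 74.8 and 139 FPKM at 6 wpi, with a log2 difference of 4.01 ± 0.34 (adjusted p = 0.000319). The complement genes c3b.1 (2.83 ± 0.29), c4b (2.1 ± 0.28) and the properdin gene cfp (1.72 ± 0.26) were the other members higher. Of 35 interferon response genes, 9 were higher (median 1.16), beside 3.44% over all genes, and 18 were higher with the replicate block. The ubiquitin-like gene isg15 was at 7.75 to 18 FPKM in control and 38 to 202 FPKM at 6 wpi (2.89 ± 0.46, adjusted p = 0.00567), followed by the RNA sensor gene DHX58 (2.09 ± 0.33), parp14rs1 (1.52 ± 0.29) and the guanylate binding protein gene gbp3 (1.47 ± 0.26).

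Of 27 antigen presentation genes, 4 were higher (median 1.16), beside 3.44% over all genes, and 14 with the replicate block. Without a library the count was between 1 and 10, with 1 without 6 wpi replicate 4 or 5, 2 without control replicate 1, 2 or 3, and 10 without control replicate 5. TAP1, a peptide transporter, was at 1.03 to 1.76 FPKM in control and 3.28 to 3.84 FPKM at 6 wpi (1.32 ± 0.20, adjusted p = 0.00433) and passed in each of these fits. The second transporter gene tap2a (1.97 ± 0.40, adjusted p = 0.019) missed the threshold without 6 wpi replicate 4 (0.0535) or 5 (0.0573). The tapasin gene tapbp.1 (1.16 ± 0.26, adjusted p = 0.028) missed it without 6 wpi replicates 4 or 5 or control replicates 1, 2 or 3 (0.0553 to 0.0789). The MHC class II gene mhc2dgb had overlapping groups, 1.59 to 15 FPKM in control and 11.9 to 26.5 FPKM at 6 wpi, and kept its call (adjusted p = 0.0402) only without control replicate 5 (0.0508 to 0.108 without the other libraries).

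Of 43 cytokine, chemokine and receptor genes, 12 were higher and none was lower (median 0.74), beside 3.44% and 0.823% over all genes. The suppressor of cytokine signalling gene SOCS3 (ENSDARG00000026611) was at 4.04 to 6.16 FPKM in control and at 23.4, 23, 24.4, 81.5 and 93.7 FPKM at 6 wpi. Replicates 4 and 5 were again the highest, and the log2 difference was 2.97 ± 0.41 (adjusted p = 0.00247). The interleukin 4 receptor gene il4r.1 (3.54 ± 0.52) and nfkbiaa, the inhibitor of NF-kappa B (1.65 ± 0.25), were also higher. With the replicate block 4 of 7 neutrophil genes were higher, and in the main fit 2 were (median 0.82), beside 3.44% over all genes. They were the matrix protease gene MMP9, at 1.52 to 2.18 FPKM in control and 9.33 to 65.9 FPKM at 6 wpi (3.49 ± 0.41, adjusted p = 0.000929), and CEBPB (1.52 ± 0.35, adjusted p = 0.0318), a transcription factor that other cells use as well. The groups of CEBPB overlapped, at 7.41 to 26.8 FPKM in control and 24 to 67.2 FPKM at 6 wpi. CEBPB missed the threshold without 6 wpi replicates 3, 4 or 5 or control replicates 1, 3 or 5 (0.0572 to 0.0908), which left 1 gene. The summed neutrophil markers overlapped, at 1.28 to 4.62 and 2.28 to 7.56 FPKM. None of the 21 lymphocyte genes tested passed in limma (median 0.41, 7 at an unadjusted p under 0.05), with or without 1 library left out, and limma voom on the recovered fragments called 1 of them lower.

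Genes of the motile cilium stood out among the increases and were grouped by their symbols after their values were seen, so their counts are a description. Motile cilia beat in the central canal and move the cerebrospinal fluid. Of 75 genes of the cilia and flagella associated protein, dynein arm, radial spoke, tektin and nexin-dynein families, 46 were higher and none was lower. Over all genes 3.44% were higher and 0.823% lower. The median log2 difference of the 75 genes was 1.57, with 1.21 in replicates 1 to 3 and 1.93 in replicates 4 and 5. The count of 46 was 30 without 6 wpi replicate 5. By family, 19 of 37 cfap genes, 16 of 24 dynein arm and assembly genes, 4 of 5 rsph genes, 4 of 5 tekt genes and 3 of 4 drc genes were higher. The 19 cfap genes became 12 without 6 wpi replicate 3, 4 or 5, the 4 radial spoke genes became 2 without control replicate 3, and the 3 drc genes became 0 without 6 wpi replicate 4 or 5 and 1 without control replicate 3. None of the 13 intraflagellar transport genes, which build motile and non-motile cilia alike, passed in limma (median 0.52). All 13 differences were positive, with 5 genes at an unadjusted p under 0.05 in limma. The higher count was 0 with limma voom, 2 with the replicate block and 5 with fragments scaled to the library total.

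The transcription factors of the motile cilium programme moved with it. FOXJ1 (chromosome 3, 60716904 to 60733722, plus strand), its master regulator, was at 2.19, 3.05, 1.57, 2.27 and 2.76 FPKM in control and 13.8, 17.3, 22.8, 48.9 and 56.9 FPKM at 6 wpi. Every injured library was above every control and replicates 4 and 5 were the highest, with a log2 difference of 3.51 ± 0.38 (adjusted p = 0.000665). The regulator of multiciliated cells gmnc rose from 0 to 0.0867 FPKM in control to 0.459 to 1.75 FPKM (2.86 ± 0.37, adjusted p = 0.00183). RFX2, which acts with FOXJ1 on ciliary genes, was at 3.24 to 6.29 and 9.1 to 15.4 FPKM (1.25 ± 0.22, adjusted p = 0.00853). The co-orthologue foxj1b rose less (0.74 ± 0.17, adjusted p = 0.0352) and passed only without control replicates 2 or 5 (0.0503 to 0.102 without the others).

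The genes of the axoneme described next were chosen after their values were seen, and all of them passed. Other members did not pass in limma. Among them were the dynein heavy chain genes DNAH7 (0.52, adjusted p = 0.506), DNAH2 (0.75, 0.165), DNAH11 (0.77, 0.131), dnah9 (0.78, 0.271) and DNAH1 (0.97, 0.0837). DNAH5 and dnah5l, of the same kind, passed. TEKT3 (−0.04, adjusted p = 0.977) and the DNAI1 gene ENSDARG00000100081 (−0.07, 0.958) did not pass either. TEKT2, a microtubule inner protein, was at 0.712, 0.851, 0.68, 0.422 and 0.475 FPKM in control and 2.65, 3.79, 4.12, 5.64 and 6.59 FPKM at 6 wpi (2.64 ± 0.28, adjusted p = 0.000665). The dynein intermediate chain gene dnai2b was at 1.01 to 1.79 FPKM in control and 3.98 to 10.5 FPKM at 6 wpi (2.13 ± 0.28, adjusted p = 0.00203). DAW1, a factor for dynein transport into cilia (2.42 ± 0.32), TEKT4 (2.96 ± 0.36), tektl1 (2.93 ± 0.31), cfap53 (2.34 ± 0.23), the central pair gene SPAG6 (1.93 ± 0.27) and the radial spoke gene RSPH4A (1.37 ± 0.22) were higher in each fit with 1 library left out. ENKUR (1.98 ± 0.42, adjusted p = 0.0214) missed the threshold without 6 wpi replicates 3, 4 or 5 or control replicate 2 (0.0503 to 0.0594).

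Of 24 genes of ependymo-radial glia tested, 1 was higher at 6 wpi and none was lower (median 0.05), beside 3.44% higher and 0.823% lower over all genes. There were 3 higher genes with the replicate block and 2 without 6 wpi replicate 1. The higher gene was SLC1A3 (ENSDARG00000043148), a glutamate transporter, at 1.93, 1.14, 0.854, 2.36 and 0.717 FPKM in control and 4.52, 12.7, 9.29, 7.58 and 10.9 FPKM at 6 wpi (2.65 ± 0.35, adjusted p = 0.00214). The second and more abundant SLC1A3 gene, ENSDARG00000104431, had a mean of 22.6 FPKM in control and 20.9 FPKM at 6 wpi (−0.07 ± 0.24, adjusted p = 0.914). Of the 8 ependymo-radial glia markers, a shorter list that also holds FOXJ1, 2 were higher, FOXJ1 and the first SLC1A3 gene. GFAP, the intermediate filament of these cells, was at 432 to 1475 FPKM in control and 805 to 1368 FPKM at 6 wpi, with a log2 difference of 0.17 ± 0.35 (adjusted p = 0.845).

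Signalling pathways of progenitor cells held some called genes, beside 3.44% higher and 0.823% lower over all genes. Of 28 Hedgehog and floor plate genes, 2 were higher (median 0.00), the 2 foxj1 genes named above, and 1 in the fits that lost foxj1b. Of 28 Notch genes, 3 were higher (median −0.03), and 1 without 6 wpi replicate 5 or control replicate 3. The transcription factor gene HES6 (ENSDARG00000007097) was at 7.28, 1.74, 3.88, 6.86 and 3.96 FPKM in control and 9.37, 35.5, 21.8, 28.3 and 42.1 FPKM at 6 wpi (2.50 ± 0.44, adjusted p = 0.00994). The ligand gene jag1b (1.13 ± 0.23, adjusted p = 0.0185) missed the threshold without 6 wpi replicate 5 (0.0565) or control replicate 3 (0.0517). The glycosyltransferase gene mfng (1.12 ± 0.28, adjusted p = 0.0447) missed it without 8 of the 10 libraries, all but 6 wpi replicate 1 and control replicate 5 (0.0502 to 0.121).

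Of 62 Wnt, Fgf and Bmp genes, 2 were higher (median −0.05), beside 3.44% over all genes, and 4 with the replicate block. The ligand gene WNT4 was at 5.28 to 9.68 FPKM in control and 11.3 to 29.2 FPKM at 6 wpi (1.14 ± 0.26, adjusted p = 0.033) and missed the threshold without 6 wpi replicates 3, 4 or 5 or control replicates 1, 3, 4 or 5 (0.0504 to 0.086). The ligand gene BMP6 was at 0.152 to 0.363 and 0.476 to 0.698 FPKM (1.06 ± 0.27, adjusted p = 0.0489) and kept its call only without control replicate 5 (0.0533 to 0.128 without the others). The count of 2 was 0 without 6 wpi replicates 3, 4 or 5 or control replicates 1 or 3 and 1 without 6 wpi replicates 1 or 2 or control replicates 2 or 4.

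Of 55 DNA replication and mitosis genes, 1 was lower and none was higher (median −0.15), beside 0.823% and 3.44% over all genes. With fragments scaled to the library total the median was 0.11, and 0 genes were called. The condensin gene SMC4 was at 4.02 to 4.88 FPKM in control and 2.26 to 2.98 FPKM at 6 wpi, without overlap (−0.76 ± 0.15, adjusted p = 0.0177). The list had a median of −0.57 in replicates 1 to 3 and 0.72 in replicates 4 and 5, so that its direction differed between the sets of libraries.

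**Figure D3:**
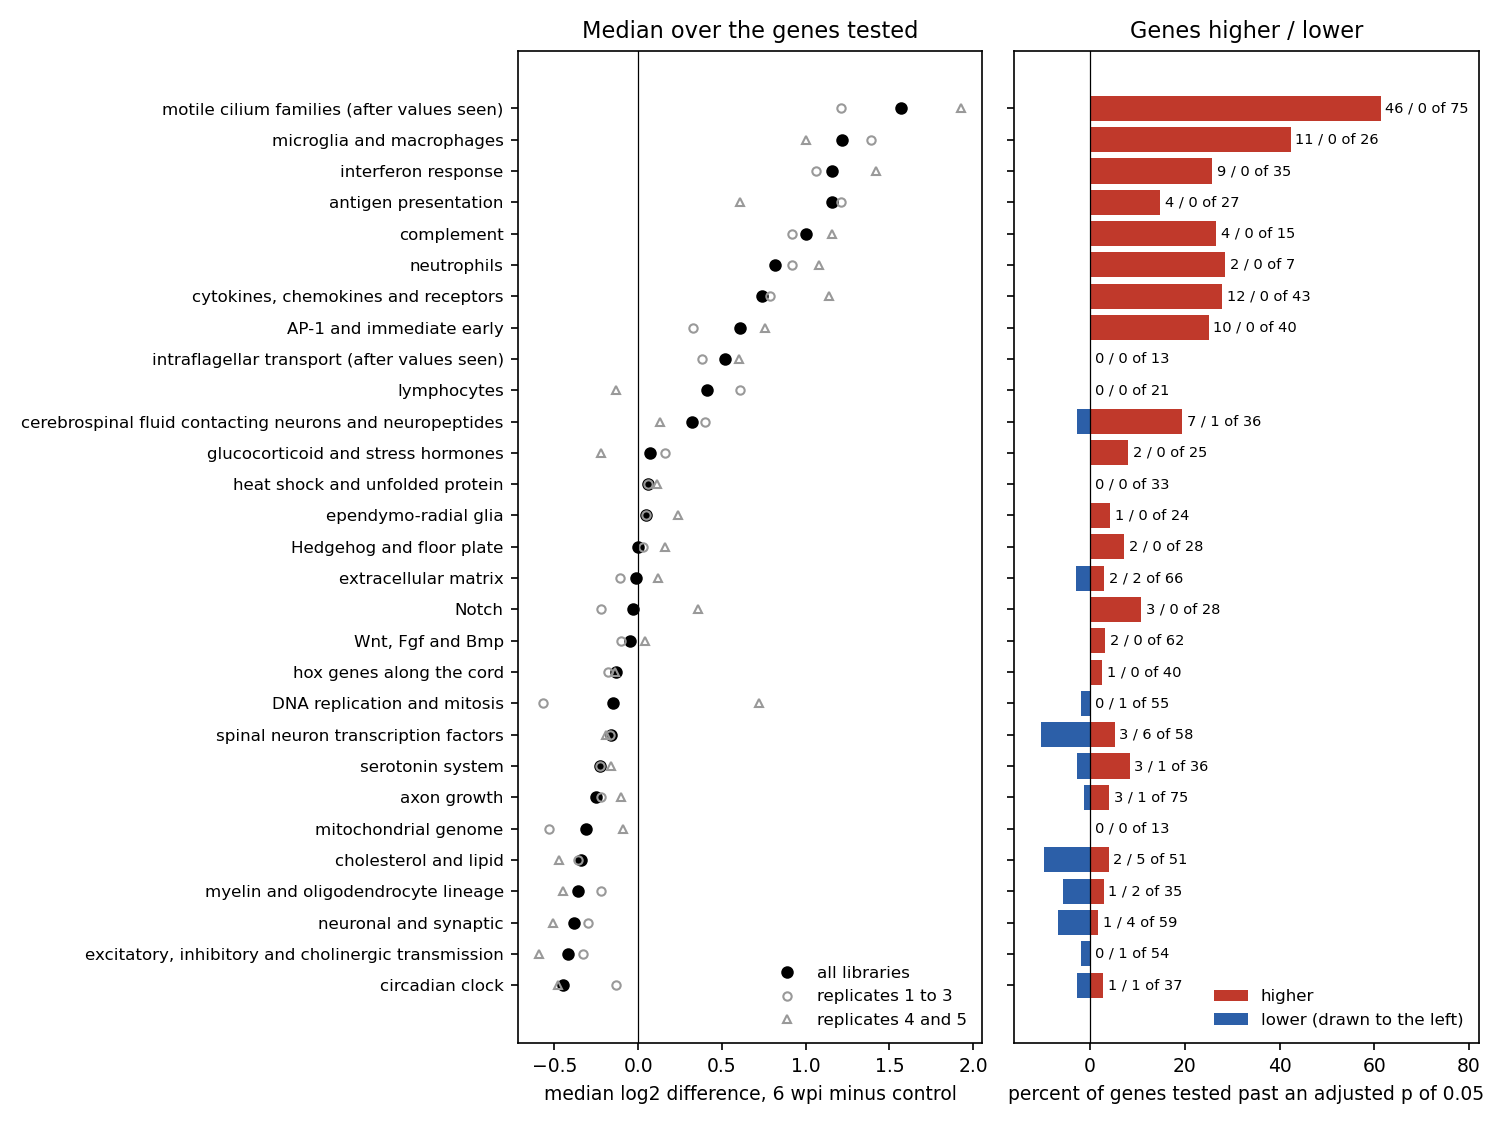
For each gene list, the left panel gives the median log2 difference (6 wpi minus control) over the genes tested, in all libraries (filled), replicates 1 to 3 (circles) and replicates 4 and 5 (triangles). The right panel gives the percent of genes past an adjusted p of 0.05, higher to the right and lower to the left, with the counts. The motile cilium families (46 of 75), microglia and macrophages (11 of 26) and cytokines (12 of 43) hold many increases, beside 3.44% over all genes. The lists with the most decreases are spinal neuron transcription factors (6 of 58), cholesterol and lipid (5 of 51) and neuronal and synaptic genes (4 of 59), beside 0.823%.

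Peptide genes of the cord rose beyond those named first. Of 36 genes of neurons that contact the cerebrospinal fluid and of neuropeptides, 7 were higher and 1 was lower (median 0.32). Over all genes 3.44% were higher and 0.823% lower. Tachykinin 1 (tac1), the precursor of substance P, was at 167, 123, 176, 136 and 243 FPKM in control and 671, 272, 784, 1010 and 543 FPKM at 6 wpi. The lowest injured library was above the highest control, with a log2 difference of 1.87 ± 0.33 (adjusted p = 0.00994). The calcitonin gene CALCB was at 71.3 to 127 FPKM in control and 147 to 370 FPKM at 6 wpi (1.52 ± 0.27, adjusted p = 0.00994), with a gene on the other strand that overlaps it. NPY, the neuropeptide Y gene, went the other way with overlapping groups, 3.58 to 11.6 and 2.19 to 5.23 FPKM (−1.37 ± 0.34, adjusted p = 0.0423), and kept its call only without 6 wpi replicate 1 or control replicate 2 (0.0701 to 0.115 without the others). The number of lower genes was 0 in the 8 fits without another library, 1 without 6 wpi replicate 1 and 2 without control replicate 2.

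Of 25 glucocorticoid and stress hormone genes, 2 were higher (median 0.07), beside 3.44% over all genes, and 1 in the fits that lost CEBPD. CRHBP, which binds corticotropin releasing hormone, was at 35.2, 61.5, 37.2, 40.4 and 58.9 FPKM in control and 130, 242, 221, 304 and 195 FPKM at 6 wpi. This was a clear separation, with a log2 difference of 2.21 ± 0.25 (adjusted p = 0.000844). The transcription factor gene CEBPD had overlapping groups (8.11 to 50.5 and 38.1 to 96.5 FPKM, 1.96 ± 0.45, adjusted p = 0.0324) and missed the threshold without 6 wpi replicates 1, 3, 4 or 5 or control replicates 1, 2 or 4 (0.0529 to 0.0812).

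Genes of the serotonin system were the genes the study turned to, so each synthesis, transport and receptor gene tested is given. Of 36 genes of the list, 3 were higher and 1 was lower, beside 3.44% and 0.823% over all genes. The median was −0.23, and 0.07 with fragments scaled to the library total. The first step of serotonin synthesis is made by tryptophan hydroxylase. TPH2, its neuronal form, was at 0.582, 0.804, 1.1, 2.56 and 2.34 FPKM in control and 1.54, 2.22, 2.21, 4.15 and 1.91 FPKM at 6 wpi. The groups overlapped, and the log2 difference was 0.79 ± 0.40 (adjusted p = 0.32), 1.19 in replicates 1 to 3 and 0.20 in replicates 4 and 5. The 2 TPH1 genes were near the detection limit, at 0 to 0.397 FPKM in control and 0.0275 to 0.433 FPKM at 6 wpi, and neither passed (adjusted p = 0.675 and 0.888).

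DDC, which makes serotonin and dopamine from their precursors, was at 0.831, 0.667, 1, 1.07 and 1.33 FPKM in control and 3.03, 2.4, 3.84, 3.27 and 3.89 FPKM at 6 wpi. Every injured library was above every control, with a log2 difference of 1.66 ± 0.22 (adjusted p = 0.00219), 1.76 in replicates 1 to 3 and 1.5 in replicates 4 and 5. FEV, a transcription factor of serotonergic neurons, was at 1.37, 2.64, 2.11, 3.01 and 3.86 FPKM in control and 4.94, 6.36, 5.43, 4.9 and 7.14 FPKM at 6 wpi. The groups did not overlap, with a log2 difference of 1.18 ± 0.25 (adjusted p = 0.0232), but the adjusted p was 0.0562, 0.0509 and 0.0712 without 6 wpi replicates 2, 3 and 5 and 0.063 without control replicate 3. LMX1B (ENSDARG00000068365), another transcription factor of these neurons and of dorsal interneurons, was lower, at 10.1 to 13.5 FPKM in control and 4.68 to 7 FPKM at 6 wpi (−0.93 ± 0.17, adjusted p = 0.0107).

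The third gene of the list that was higher was pnocb, the precursor of the opioid-like peptide nociceptin, which also counts among the higher genes of the neuropeptide list above. It was at 66.8, 42.3, 40.4, 43.6 and 50.4 FPKM in control and 219, 177, 181, 262 and 137 FPKM at 6 wpi. The mean rose from 48.7 ± 10.8 to 195 ± 47.4 FPKM (SD, n = 5), a log2 difference of 1.99 ± 0.21 (adjusted p = 0.000665), and was alike in replicates 1 to 3 (1.98) and in replicates 4 and 5 (2.01).

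Transporters and degradation did not pass the test. The serotonin transporter gene SLC6A4 was at 1.37 to 2.41 FPKM in control and 1.2 to 1.94 FPKM at 6 wpi (−0.30 ± 0.21, adjusted p = 0.497). Its paralogue slc6a4b (0.19 ± 0.36, adjusted p = 0.836), the vesicular transporter gene SLC18A2 (−0.33 ± 0.37, adjusted p = 0.694) and mao, which breaks serotonin down (−0.04 ± 0.15, adjusted p = 0.914), had overlapping groups. Of 20 serotonin receptor genes in the table, 16 reached the floor of 0.1 on the mean FPKM and were tested, and limma called none of them in either direction (median −0.49, 3 positive, 2 at an unadjusted p under 0.05, 0 with limma voom). With fragments scaled to the library total the median was −0.17. The group 1 receptor genes htr1aa (9.37 ± 2.39 and 7.07 ± 1.54 FPKM in control and at 6 wpi) and htr1b (6.04 ± 1.14 and 4.45 ± 1.40 FPKM), with htr7c (4.54 ± 1.25 and 3.78 ± 1.34 FPKM), were the most abundant. HTR5A (ENSDARG00000038869) was the receptor gene with groups apart, at 0.335 to 0.668 FPKM in control and 0.0809 to 0.255 FPKM at 6 wpi (−0.99 ± 0.31, adjusted p = 0.0984). The others had overlapping groups, with log2 differences of −0.94 (HTR3B), −0.85 (HTR1D), −0.66 (HTR2A ENSDARG00000057029 and HTR3A), −0.58 (HTR6), −0.54 (HTR5A ENSDARG00000068557), −0.51 (HTR2B), −0.30 (htr2cl1), −0.03 (HTR4), 0.28 (HTR2A ENSDARG00000058165), 0.44 (htr1fb) and 0.59 (HTR1A).

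Neuronal genes lay mostly below control. Of 59 neuronal and synaptic genes tested, 4 were lower and 1 was higher, beside 0.823% and 3.44% over all genes. The median was −0.38, with 4 positive differences, and 10 genes were lower with the replicate block. With fragments scaled to the library total the median was −0.04, with 1 gene lower and 1 higher. The 4 lower genes of the main fit were 3 neurofilament genes, whose proteins set the calibre of large axons, and HOMER1, a scaffold of the synapse. The neurofilament gene nefmb was at 567, 1060, 731, 613 and 486 FPKM in control and 288, 195, 244, 282 and 222 FPKM at 6 wpi. Each injured library was below each control, with a log2 difference of −1.45 ± 0.24 (adjusted p = 0.00682). NEFL (−1.38 ± 0.30, adjusted p = 0.0252) missed the threshold without 6 wpi replicates 2, 4 or 5 or control replicates 1 or 3 (0.058 to 0.0699), nefla (−1.27 ± 0.28, adjusted p = 0.0264) without 6 wpi replicates 2 to 5 or control replicate 3 (0.0551 to 0.0755), and HOMER1 (−0.75 ± 0.17, adjusted p = 0.0325) without 6 wpi replicates 2, 4 or 5 or control replicates 1, 3, 4 or 5 (0.0501 to 0.09). The count of 4 was 1 without 6 wpi replicates 2, 4 or 5 or control replicate 3 and 2 without control replicate 1.

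Of 54 genes of excitatory, inhibitory and cholinergic transmission, 1 was lower and none was higher, beside 0.823% and 3.44% over all genes. The median was −0.42, with 3 positive differences, and 3 genes were lower with the replicate block. With fragments scaled to the library total the median was −0.11, and 0 genes were called. The list held 0 called genes without 6 wpi replicates 2 to 5 or control replicates 1 to 3.

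Transcription factors of spinal neurons moved in both directions. Of 58 tested, 3 were higher and 6 were lower, beside 3.44% higher and 0.823% lower over all genes. With fragments scaled to the library total the median was 0.12, with 5 genes higher and 0 lower, and in the main fit it was −0.16. Higher were SOX14 (ENSDARG00000070929), of V2 interneurons (2.78 to 3.81 and 4.85 to 6.71 FPKM, 0.92 ± 0.17, adjusted p = 0.0107), and the 2 PAX6 genes, of neural progenitors. PAX6 (ENSDARG00000103379) was at 4, 3.75, 2.15, 3.37 and 3.18 FPKM in control and 6.02, 6.63, 7.11, 7.42 and 6.73 FPKM at 6 wpi (1.05 ± 0.19, adjusted p = 0.00988). The other PAX6 gene, ENSDARG00000045936 (0.78 ± 0.19, adjusted p = 0.0397), passed only without 6 wpi replicate 1 or control replicate 2 (0.0593 to 0.109 without the others). Lower were, besides LMX1B, tlx2 of dorsal excitatory neurons (12 ± 1.68 and 6.33 ± 1.07 FPKM, −0.92 ± 0.17, adjusted p = 0.012), and PAX2 and lbx1a of dorsal and inhibitory neurons. PAX2 (ENSDARG00000028148, −0.76 ± 0.16) and lbx1a (−0.83 ± 0.18) had an adjusted p of 0.0235 each and no overlap between groups. PAX2 missed the threshold without 6 wpi replicates 2, 4 or 5 or control replicates 3 or 4 (0.0502 to 0.068), and lbx1a without 6 wpi replicates 3, 4 or 5 or control replicates 3 or 4 (0.0526 to 0.0599). The count of 6 was 3 without 6 wpi replicates 2, 3 or 4 or control replicate 4 and 2 without 6 wpi replicate 5 or control replicate 3.

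Of 75 genes of axon growth tested, 3 were higher and 1 was lower, beside 3.44% and 0.823% over all genes, and 5 and 6 with the replicate block. The median was −0.25 (0.08 with fragments scaled to the library total), 22 differences were positive and 27 genes had an unadjusted p under 0.05. The growth cone gene gap43 was at 218, 298, 202, 265 and 214 FPKM in control and 205, 222, 182, 307 and 275 FPKM at 6 wpi. The groups overlapped fully, with a log2 difference of −0.02 ± 0.20 (adjusted p = 0.98). Higher were the 3 transcription factor genes ATF3, STAT3 and JUN, and the cells that expressed them were not identified. ATF3 and JUN are also members of the AP-1 and immediate early list below. ATF3 was at 0.968 to 3.05 FPKM in control and 5.79 to 15.7 FPKM at 6 wpi (2.14 ± 0.35, adjusted p = 0.00684). STAT3 (0.93 ± 0.20, adjusted p = 0.0211) missed the threshold without 6 wpi replicates 2, 4 or 5 or control replicate 3 (0.0533 to 0.0587). JUN (ENSDARG00000043531, 1.44 ± 0.36, adjusted p = 0.0432) missed it without 6 wpi replicates 3, 4 or 5 or control replicates 1, 3, 4 or 5 (0.0597 to 0.108). The lower gene was the actin-associated CSRP1 (ENSDARG00000030980, −1.36 ± 0.34, adjusted p = 0.0462), which passed only without 6 wpi replicate 1 or control replicates 1 or 2 (0.0735 to 0.113 without the others). The higher count was 1 without 6 wpi replicates 4 or 5 or control replicate 3, and the lower count ranged from 0 (6 wpi replicates 2 to 5, control replicates 3 or 4) to 2 (6 wpi replicate 1, control replicate 5).

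Of 40 AP-1 and immediate early genes, 10 were higher and none was lower (median 0.61), beside 3.44% and 0.823% over all genes. Within replicates 1 to 3 the higher genes of the list were 2, and within replicates 4 and 5 they were 14. AP-1 is a pair of Fos and Jun proteins that switches on genes after injury or activity. FOSL2 was at 1.04, 0.832, 0.576, 0.528 and 0.794 FPKM in control and 5.4, 4.72, 7.56, 10.7 and 13 FPKM at 6 wpi, with a log2 difference of 3.23 ± 0.30 (adjusted p = 0.000385). The 2 JUNB genes, ENSDARG00000074378 (2.69 ± 0.32, adjusted p = 0.00101) and ENSDARG00000104773 (2.36 ± 0.43, adjusted p = 0.0117), were higher as well, and in each fit with 1 library left out. The count of 10 was 5, 6 and 5 without 6 wpi replicates 3, 4 and 5, and 5 and 6 without control replicates 1 and 3. ETV1, a transcription factor of the ETS family, was at 0.898 to 1.6 FPKM in control and 7.23 to 14.9 FPKM at 6 wpi (2.98 ± 0.23, adjusted p = 0.000171). The membrane protease gene adam8a was at 0.333 to 0.598 FPKM in control and 5.01 to 12.2 FPKM at 6 wpi (3.94 ± 0.25, adjusted p = 3.69e-05). Both genes were chosen after their values were seen.

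Myelin genes lay mostly below control, but few passed, and the most abundant ones varied more between control than between injured libraries. Of 35 genes of myelin and the oligodendrocyte lineage, 2 were lower and 1 was higher (median −0.36), beside 0.823% and 3.44% over all genes. With fragments scaled to the library total 1 was lower and 2 were higher (median −0.11). UGT8, which makes the myelin lipid galactosylceramide, was at 12.9, 20.9, 15.7, 28.9 and 12.8 FPKM in control and 7.83, 7.4, 11, 8.02 and 8.59 FPKM at 6 wpi (−1.02 ± 0.23, adjusted p = 0.0305). The groups did not overlap, but it missed the threshold without 6 wpi replicates 1, 2, 4 or 5 or control replicates 2, 3 or 4 (0.0512 to 0.0764). The lower count was 0 without 6 wpi replicates 2, 4 or 5 or control replicates 2 to 4 and 1 without 6 wpi replicate 3, and 3 with the block. The higher gene was nkx2.2b, a transcription factor of oligodendrocyte precursors and ventral progenitors (1.31 ± 0.23, adjusted p = 0.01). The abundant myelin genes had overlapping groups, with mbpa at 29371 to 110859 FPKM in control and 21483 to 37944 FPKM at 6 wpi (−1.09 ± 0.64, adjusted p = 0.401) and plp1b at 9128 to 30187 and 6033 to 10086 FPKM (−1.34 ± 0.47, adjusted p = 0.143).

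Of 51 cholesterol and lipid genes, 5 were lower and 2 were higher (median −0.34), beside 0.823% and 3.44% over all genes. With fragments scaled to the library total 1 was lower and 4 were higher (median −0.01). Besides ELOVL1, the elongase gene ELOVL5 (14.2 ± 5.23 and 5.64 ± 0.983 FPKM, −1.26 ± 0.24, adjusted p = 0.0147) was lower in each fit with 1 library left out. The sterol synthesis genes SC5D (−1.57 ± 0.35, adjusted p = 0.0262) and HSD17B7 (−1.21 ± 0.28, adjusted p = 0.0305) both missed the threshold without 6 wpi replicates 4 or 5 or control replicates 1 to 3. SC5D also missed it without 6 wpi replicate 2 and HSD17B7 without control replicate 4, the values being 0.0578 to 0.072 for SC5D and 0.0578 to 0.0764 for HSD17B7. SC5D had overlapping groups, 27.5 to 88.7 FPKM in control and 12.5 to 35.7 FPKM at 6 wpi. The count of 5 was 3 without 6 wpi replicates 2, 4 or 5 or control replicate 4 and 2 without control replicates 1, 2 or 3. The lipoprotein gene apoeb, abundant in microglia, was at 243, 671, 514, 725 and 1283 FPKM in control and 1706, 4674, 1696, 4447 and 4824 FPKM at 6 wpi (2.37 ± 0.48, adjusted p = 0.0177), with an adjusted p of 0.053 without 6 wpi replicate 5 and 0.0508 without control replicate 3. The lysosomal cholesterol gene NPC2 (ENSDARG00000096979) was higher with overlapping groups, 0 to 1.36 and 1.19 to 11.8 FPKM (3.63 ± 0.84, adjusted p = 0.0331), and missed the threshold without 6 wpi replicates 2, 4 or 5 or control replicates 1 or 3 (0.0628 to 0.096). The second and more abundant NPC2 gene, ENSDARG00000090912, had a mean of 171 FPKM in control and 210 FPKM at 6 wpi (0.12 ± 0.44, adjusted p = 0.924). The higher count was 1 without 6 wpi replicates 2 or 4 or control replicate 1 and 0 without 6 wpi replicate 5 or control replicate 3.

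Of 66 extracellular matrix genes, 2 were higher and 2 were lower (median −0.01), beside 3.44% and 0.823% over all genes. With the replicate block 5 were lower. With fragments scaled to the library total 6 were higher and 0 were lower (median 0.25). The laminin gene LAMB2, a part of basement membranes, was at 0.8, 0.598, 0.59, 0.269 and 0.228 FPKM in control and 1.99, 2.28, 2.69, 3.16 and 3.54 FPKM at 6 wpi (2.32 ± 0.31, adjusted p = 0.00219), and CTHRC1 was the other gene higher. The collagen gene COL1A1 (ENSDARG00000035809) was at 2.2 to 7.85 FPKM in control and 1.53 to 2.14 FPKM at 6 wpi (−1.38 ± 0.31, adjusted p = 0.0293), and kept its call only without control replicates 4 or 5 (0.0508 to 0.0785 without the others). Lumican (LUM, −1.40 ± 0.33, adjusted p = 0.0377) kept its call only without 6 wpi replicate 3 or control replicate 5 (0.0516 to 0.0978 without the others). The lower count was 6 without control replicate 5, 1 without 6 wpi replicate 3 or control replicate 4, and 0 without any other library, and the higher count was 4 without 6 wpi replicate 1. The fibroblast and meninges markers summed to 134 to 166 FPKM in control and 136 to 190 FPKM at 6 wpi.

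Markers of tissue around the cord moved in part with the injury. The skin markers summed to 68.3 to 152 FPKM in control and 243 to 878 FPKM at 6 wpi, mostly from ictacalcin (icn, 59.3 to 130 and 200 to 850 FPKM, 2.38 ± 0.38, adjusted p = 0.00608), a calcium binding protein, while 1 of the 15 was at 0 in all 10 libraries and 9 were below 1 FPKM. Without icn the groups were still apart, at 8.94 to 22.8 and 25.8 to 49.3 FPKM. The bone and cartilage markers summed to 4.85 to 9.31 and 10.3 to 16.5 FPKM, with RUNX2 at 0.108 to 0.261 FPKM in control and 0.769 to 2.82 FPKM at 6 wpi (2.88 ± 0.35, adjusted p = 0.00107), and with runx2b (1.14 ± 0.23) and spp1 (2.18 ± 0.47) also higher. Without 6 wpi replicate 5 or control replicate 3 runx2b had an adjusted p of 0.0519 and 0.0527, and spp1 missed the threshold without 6 wpi replicates 2 or 4 or control replicates 1 or 4 (0.0538 to 0.0572). Of these 12 markers 8 were below 1 FPKM in every library. Skeletal muscle (33.5 to 406 and 47.4 to 76.3 FPKM), red blood cell (179 to 935 and 55.6 to 722 FPKM), endothelial (18.7 to 40.4 and 33.1 to 52.7 FPKM), lymphocyte (8.97 to 18 and 7.86 to 16.2 FPKM) and peripheral nerve and ganglion markers (252 to 351 and 211 to 310 FPKM) overlapped between groups. Without their most abundant member the peripheral nerve and ganglion markers were lower at 6 wpi with the groups apart, at 159 to 263 and 121 to 144 FPKM. The part of other tissue in the changes of pth1a, ANXA2 or the matrix genes was not tested.

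The circadian, hox, heat shock and mitochondrial lists completed the set, beside 3.44% higher and 0.823% lower over all genes. Of 37 circadian clock genes, 1 was lower and 1 was higher (median −0.45, −0.13 in replicates 1 to 3), and within replicates 4 and 5 alone 10 were lower. With fragments scaled to the library total 0 were lower and 2 were higher (median −0.11). The clock gene PER2, which also responds to light, was at 7.29, 10.5, 5.26, 5.46 and 4.75 FPKM in control and 2.83, 1.63, 2.36, 1.31 and 1.87 FPKM at 6 wpi (−1.67 ± 0.26, adjusted p = 0.00562). The nuclear receptor gene rorcb (1.26 ± 0.32, adjusted p = 0.0492) passed only without control replicate 4 (0.0575 to 0.134 without the others), and without that replicate 2 genes were lower. The hour of sampling is not given in the sources used here. Of 40 hox genes, 1 was higher (median −0.13, 0.09 with fragments scaled to the library total), HOXA11 (ENSDARG00000007009) with overlapping groups of 0.164 to 1.11 and 0.807 to 4.09 FPKM (1.95 ± 0.50, adjusted p = 0.0491). HOXA11 passed only without 6 wpi replicate 1 or control replicates 3 or 5 (0.0614 to 0.129 without the others), and the hox count was 2 without control replicate 5 and 0 without 6 wpi replicates 2 to 5 or control replicates 1, 2 or 4. None of 33 heat shock and unfolded protein genes passed in limma (median 0.06, 7 at an unadjusted p under 0.05, 0 with limma voom, 3 higher and 1 lower with the replicate block). None of 13 genes of the mitochondrial genome passed in limma (median −0.31, 0.02 with fragments scaled to the library total, 0 at an unadjusted p under 0.05 and 0 with limma voom).

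To place the 6 wpi state in time, it was compared with the other injured rostral groups, 5 libraries each. These comparisons share the 6 wpi libraries with the one above, and their values are given side by side. Against 1 wpi, 151 of 28109 genes were higher at 6 wpi (0.537%) and 301 were lower (1.07%), and 497 and 689 with the replicate block. Every fit with 1 library left out gave fewer calls, from 149 without 6 wpi replicate 3 to 338 without 6 wpi replicate 5, the others being 173, 208 and 217 without 6 wpi replicates 4, 2 and 1 and 226, 265, 241, 195 and 227 without 1 wpi replicates 1 to 5. Against 4 wpi, limma called 0 of 28338 genes higher (0%) and 0 lower (0%), with 773 genes at an unadjusted p under 0.05 and 1495 with the replicate block. Without 4 wpi replicate 5 it called 7, without 4 wpi replicate 2 or 6 wpi replicate 3 it called 1.

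Some genes that were high at 1 wpi were lower at 6 wpi. The growth cone gene gap43 was at 1827 ± 977 FPKM at 1 wpi, 384 ± 77.3 FPKM at 4 wpi and 238 ± 51.4 FPKM at 6 wpi, a log2 difference of −2.80 ± 0.37 from 1 to 6 wpi (adjusted p = 0.00544). The cytokine receptor-like gene crlf1a fell from 37.9 ± 5.78 to 3.97 ± 1.46 FPKM (−3.28 ± 0.24, adjusted p = 0.000126) and was still above control by 2.47 ± 0.27 (adjusted p = 0.00077). SLC1A3 (−2.14 ± 0.29), ATF3 (−1.91), nppb (−2.76 ± 0.60) and NPC2 (ENSDARG00000096979, −4.40 ± 0.67) were likewise lower at 6 than at 1 wpi and above control. The more abundant NPC2 gene (ENSDARG00000090912) did not pass from 1 to 6 wpi in limma (−0.27 ± 0.67, adjusted p = 0.908). Of the lists, axon growth held 13 of 75 genes lower at 6 than at 1 wpi and none higher, and DNA replication and mitosis 9 of 55 lower. Microglia and macrophages held 5 of 26 lower and 1 higher. Over all genes 1.07% were lower and 0.537% higher in this comparison. List counts with 1 library left out are not given for it.

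Other genes were higher at 6 than at 1 wpi. ETV1 was at 2.8 ± 0.621 FPKM at 1 wpi, 6.79 ± 1.9 FPKM at 4 wpi and 10.2 ± 3.01 FPKM at 6 wpi (1.80 ± 0.23 from 1 to 6 wpi, adjusted p = 0.00418). FEV was at 2.36 ± 0.314, 3.76 ± 0.573 and 5.76 ± 0.974 FPKM at these times (1.25 ± 0.17, adjusted p = 0.00663), and DDC at 1.57 ± 0.347, 2.85 ± 0.72 and 3.29 ± 0.615 FPKM (1.03 ± 0.21, adjusted p = 0.0343). At 1 wpi FEV did not pass against control (−0.07, adjusted p = 0.915), nor did DDC (0.63, adjusted p = 0.123). The complement gene c3b.1 (2.21 ± 0.34, adjusted p = 0.0113), SOX14 (0.94 ± 0.16, adjusted p = 0.0176) and mao (0.73 ± 0.15, adjusted p = 0.0359) were higher too. For mao the level was 4.5 ± 0.486 FPKM at 1 wpi, below control (−0.77, adjusted p = 0.0106 in limma). At 6 wpi it was 7.53 ± 0.813 FPKM, near the 7.77 ± 0.834 FPKM of control. Of the motile cilium families, 3 of the 75 genes were higher at 6 than at 1 wpi, beside 0.537% over all genes. The median difference of the 75 genes from control was 1.57 at 6 wpi and 1.35 at 4 wpi.

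**Figure D4:**
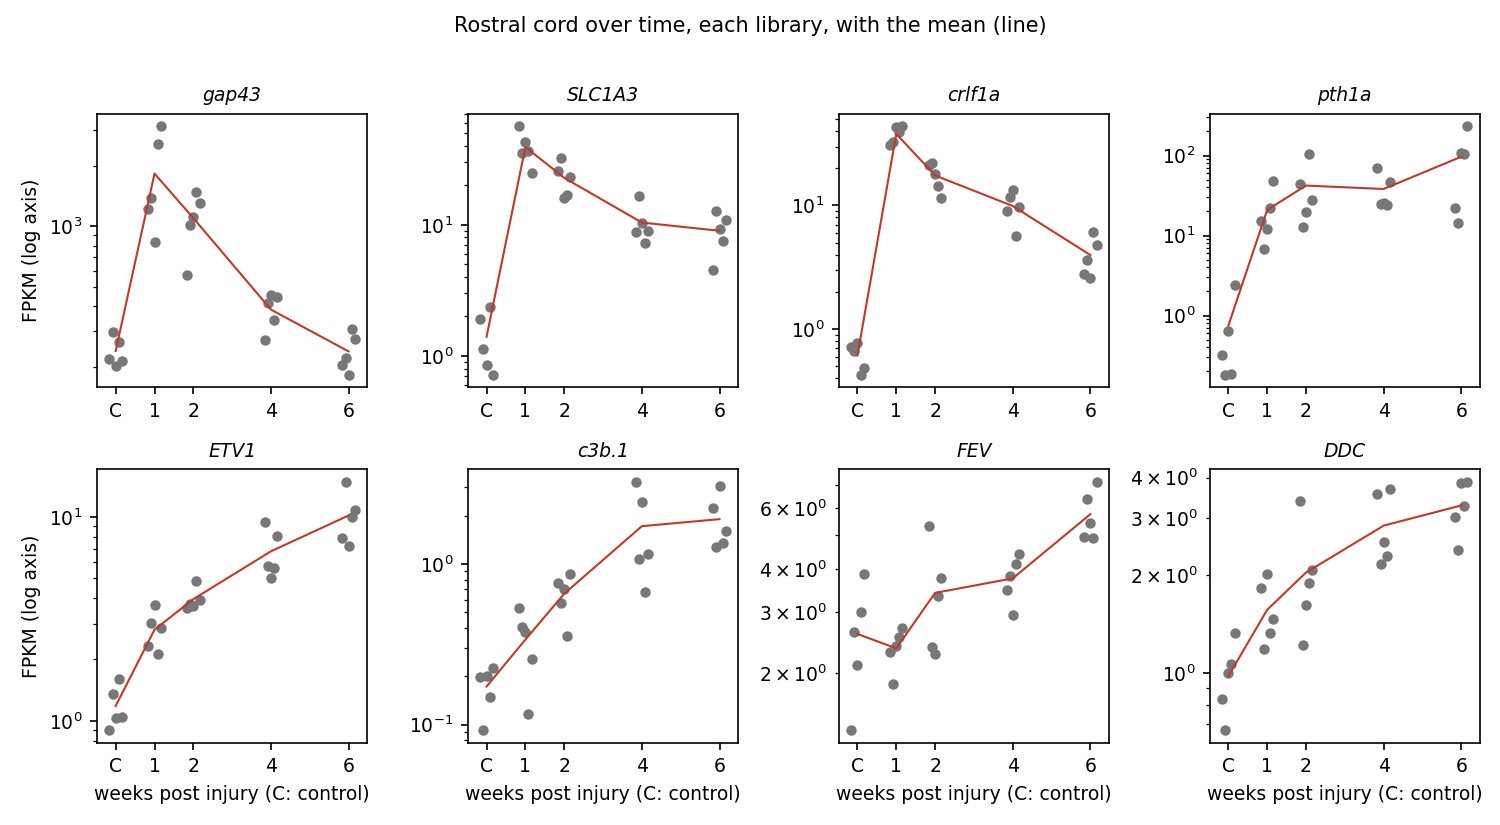
FPKM on a log axis in each rostral library of 8 genes in control (C) and at 1, 2, 4 and 6 wpi, with the mean as a line. The genes gap43, SLC1A3 and crlf1a are highest at 1 wpi and gap43 is at 238 ± 51.4 FPKM at 6 wpi, while ETV1, c3b.1, FEV and DDC reach their highest means at 6 wpi.

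Whether the change at 6 wpi was particular to the rostral side was tested against the cord caudal to the injury, as the difference of the 2 changes. The test added 5 caudal control and 4 caudal 6 wpi libraries, with no caudal 6 wpi replicate 4. Libraries numbered 4 and 5, which stood apart in both rostral groups, were thus a smaller share of the caudal than of the rostral 6 wpi libraries. The part of this imbalance in the differences was not tested beyond the fit without number 4. The random block of the test was the replicate number within the injured or the control libraries. This block treats same-numbered rostral and caudal libraries as related, though no source says what a number stands for. Of 28416 genes, 23 had a more positive change in the rostral than in the caudal cord (0.0809%) and 2 a more negative one (0.00704%), and 17 of these 25 are named here. The count rested on the model: with no block limma called 0 (575 at an unadjusted p under 0.05). With this block as a fixed effect, an alternative chosen after seeing the data, limma also called 0 (1993). Leaving out replicate numbers 1 to 5 in turn gave 104, 5, 3, 7 and 5 genes.

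Motile cilium genes were among them. FOXJ1 changed by 3.51 in the rostral cord and by 1.5 in the caudal cord (from 3.42 to 9.94 FPKM), a difference of 1.88 ± 0.32 (adjusted p = 0.0283). The genes cfap53 (difference 1.53 ± 0.20, adjusted p = 0.00284), TEKT4 (2.03 ± 0.36), RSPH4A (1.2 ± 0.20) and gmnc (2.11 ± 0.39) had the same direction. The peptide gene vipb was at 0.355 FPKM in caudal control and 0.327 FPKM at caudal 6 wpi, and its changes differed by 4.25 ± 0.74 (adjusted p = 0.0283). For nppcl2 the difference was 3.16 ± 0.54, for SLC1A3 1.72 ± 0.31, for crlf1a 1.54 ± 0.22 and for the receptor-like gene LDLRAD2 1.44 ± 0.24. The other large peptide increases were not shown to differ, with 3.50 for pth1a (adjusted p = 0.105) and 3.2 for qrfp (adjusted p = 0.0545).

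For other genes the fitted changes had opposite signs in the 2 regions, but none passed against control in both. The matricellular gene ccn1l2 was at 0.395 to 0.578 FPKM in rostral control and 1.12 to 3.84 FPKM at rostral 6 wpi, and in the caudal cord at 1.54 and 0.785 FPKM, where the change did not pass (−0.81, adjusted p = 0.344). The changes differed by 2.64 ± 0.31 (adjusted p = 0.00196). R3HDML was at 22.6 and 34.4 FPKM in the rostral cord (0.50, adjusted p = 0.462) and fell from 34.8 to 12.7 FPKM in the caudal cord (log2 difference −1.44, adjusted p = 0.0163), a difference of 1.88 ± 0.25 (adjusted p = 0.00291). The Wnt ligand gene wnt4b (2.53 ± 0.47), the lipase gene LIPG (1.28 ± 0.20) and linc.alien (1.1 ± 0.19) did not pass against control in the rostral cord alone (adjusted p = 0.197, 0.209 and 0.306), nor in the caudal cord (0.281, 0.142 and 0.287).

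**Figure D5:**
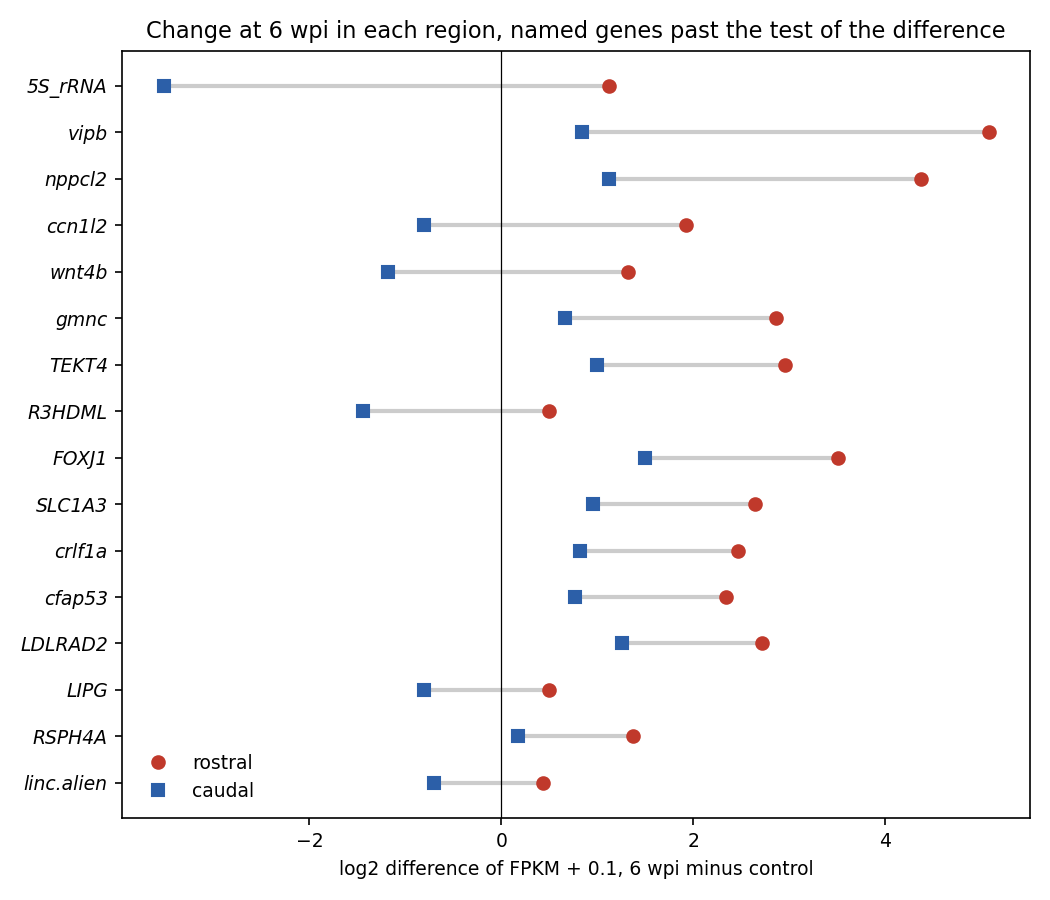
For 16 genes whose change differed between regions, the log2 difference of FPKM + 0.1 (6 wpi minus control) in the rostral cord (circles, 5 libraries a group) and in the caudal cord (squares, 5 control and 4 injured libraries). All circles lie to the right of the squares, and vipb (5.08 against 0.84) has the largest rostral value.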

How the data were processed

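RNA-seq libraries of dissected zebrafish cord were analysed, 10 for the main comparison. Per the labels and the methods of the study, reads were aligned with HISAT2 2.0.5 to danRer11 and counted per gene with featureCounts 1.5.0-p3, and the authors deposited the result as FPKM. With the gene lengths, 100% of the values gave whole fragments (tolerance 0.01), 12289561 to 26940599 per library, and the deposited scaling differed from a scaling by these totals by factors of 0.624 to 1.29. Main fits used log2(FPKM + 0.1), a floor of 0.1 on a gene's mean FPKM, and limma 3.58.1 (R 4.3.3) with trended variances and Benjamini-Hochberg adjustment over all genes tested. Alternatives were other pseudocounts, filters, scalings, covariates and sets of samples, limma voom, and each library left out. The main fit alone was run on simulated data, drawn with a common spread setting for all genes and no difference between sets of replicates. The other fits were not run on such data.

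Replicate numbers pair the libraries by a rule on the data: deviations of same-numbered libraries correlated at 0.222, 0.272, 0.131, 0.136 and 0.247, each above 0.1, though no source says what a number stands for. Differently numbered libraries correlated at −0.275 to 0.222, and 6 wpi replicates 3 and 4 correlated more with control replicates 1 (0.171) and 5 (0.222) than with their own number. Blocked values stand where they change the call of a named gene, but not beside every list count. With the block, the higher and lower genes were 14 and 1 (cytokines), 7 and 2 (neuropeptides) and 11 and 0 (AP-1). They were 3 and 5 (cholesterol and lipid), 1 and 2 (circadian), 3 and 1 (stress hormones), and 1 and 2 (hox). Of the motile cilium families together, 47 were higher.

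The members and lists were chosen with earlier results of these data known. Named genes were the 12 largest increases and decreases among genes with a symbol, with non-overlapping groups and a mean of at least 1 FPKM in the higher group, at most 4 called members of each of 27 lists each way, and all serotonin genes. Cilium genes, ETV1, adam8a and genes of the time comparison were chosen after their values were seen. Symbols were found for 29178 of 31901 identifiers. Listed symbols were matched regardless of case, otherwise without a final a or b, a rule set after the files were seen. Of 148 genes tabulated, 36 overlap another gene, 25 on the other strand. Some genes that the rule would name are not reported here but count in their lists.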

Additional observations from a re-analysis of the deposited data

Results flagged for a closer look

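In 9 of 296 groups of 5 libraries tested, 1 library stood far from the others (Dixon's test). Chance alone flags about 1 in 20 groups. The values were c7a in control replicate 3 (5.19 FPKM), nfkbiaa in control replicate 5 (7.32 FPKM), htr1b in control replicate 1 (4.03 FPKM), lbx1a in 6 wpi replicate 3 (14.7 FPKM), HTR2B (1.03 FPKM) and RUNX2 (0.769 FPKM) in 6 wpi replicate 1, RFX2 (15.4 FPKM) and RSPH4A (7.81 FPKM) in 6 wpi replicate 5, and mir181c in 6 wpi replicate 4, which was listed at 0 FPKM.

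The 6 wpi and 1 wpi libraries differed (limma, adjusted p under 0.05) in 22 named genes. Lower at 6 wpi on the log2 scale were NPC2 (ENSDARG00000096979, −4.40), crlf1a (−3.28), gap43 (−2.80), nppb (−2.76), SLC1A3 (−2.14), cldn33b (−2.13), ATF3 (−1.91), SMC4 (−0.79) and ctss2.2 (−0.68). Higher were tmem196b (2.79), c3b.1 (2.21), ETV1 (1.80), mhc2dgb (1.59), FEV (1.25), foxj1b (1.1), DDC (1.03), LAMB2 (0.95), SOX14 (0.94), the PAX6 genes (0.93 and 0.82), csf1rb (0.86) and mao (0.73).

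The change at 6 wpi was more positive in the rostral than in the caudal cord for 17 named genes with the replicate number as a random block. With no block it was so for none. The differences of the changes, on the log2 scale, were 4.79 (5S_rRNA), 4.25 (vipb), 3.16 (nppcl2), 2.88 (mir181c), 2.64 (ccn1l2), 2.53 (wnt4b), 2.11 (gmnc), 2.03 (TEKT4), 1.88 (FOXJ1 and R3HDML), 1.72 (SLC1A3), 1.54 (crlf1a), 1.53 (cfap53), 1.44 (LDLRAD2), 1.28 (LIPG), 1.2 (RSPH4A) and 1.1 (linc.alien). The value of mir181c rests on 4 fragments in all, and 5S_rRNA is one of many near-identical copies.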

How the results depend on the processing

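Of the 115 named genes that passed, none changed direction under any of the 25 alternatives of the main comparison. Between 81 and 106 still passed with 1 library left out, 114 with the replicate block, 44 within replicates 1 to 3, 56 within replicates 4 and 5 and 98 with fragments scaled to the library total. The counts of genes higher and lower moved beyond 1.5 times under these settings: 1467 and 552 with the replicate block, 1569 and 584 with the set of replicates as a covariate, 1836 and 627 with all rostral groups in the fit, 2029 and 739 with all 10 groups, 131 and 42 within replicates 1 to 3, 546 and 104 within replicates 4 and 5, and 2327 and 39 with the library total. With 1 library left out they ranged from 467 to 1115 higher and from 82 to 267 lower. Other pseudocounts, filters, scalings and tests gave 787 to 1016 higher and 160 to 260 lower genes. The causes were not tested, and the subsets also hold fewer libraries.

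Against 1 wpi the replicate block gave 497 higher and 689 lower genes, and leaving out 1 library gave 38 to 91 and 111 to 247. Against 4 wpi leaving out 1 library gave 0 to 4 higher and 0 to 3 lower genes. The difference between regions gave 0 and 0 with no replicate block and with that block as a fixed effect, and 32 and 4 with a pseudocount of 1. It gave 7 and 0 without replicate number 4, and 2 to 98 and 0 to 6 over all replicate numbers left out. Genes below 1 FPKM rest on few fragments, and 5 libraries a group set the precision of every difference.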
